A study of Mus musculus with 6 samples.

Results

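Collagens are the most abundant proteins of the extracellular matrix, and the 44 genes described here encode their chains. They are the protein-coding genes of the mouse annotation GENCODE M21 whose symbol has the form Col, a number, a and a number, and they make up 44 of the 54532 genes in the count table. RNA-Seq was performed on the epididymal fat, the visceral depot beside the epididymis, of male C57BL/6J mice, an inbred strain. The ND group received a normal diet with 4.5% fat and the HFD group a high-fat diet with 60% fat, in both cases from 4 weeks of age for 16 weeks, so that the mice were 20 weeks old at collection. The labels give no other treatment and no transgene, and there were 3 libraries per diet, named ND1 to ND3 and HFD1 to HFD3 after the replicate numbers in their labels. All gene positions are those of build GRCm38. Whole fat was lysed, so each value is a mean over adipocytes, stromal, vascular and immune cells, and fewer cells of a type cannot be told apart from less RNA per cell.

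A collagen molecule consists of a trio of chains wound around each other in a triple helix, which requires a glycine in each triplet of residues. Fibrillar collagens such as types I, III and V form the load-bearing fibers around fat cells, and type IV forms the sheet-like network of the basement membrane that encloses every adipocyte and capillary. Type VI builds beaded filaments between cell and fiber and is prominent in adipose tissue. FACIT collagens (fibril-associated collagens with interrupted triple helices) sit on the surface of fibers, while multiplexins, short chain and transmembrane collagens serve at basement membranes, in specialised matrices and at the cell surface. Chains are hydroxylated and folded in the endoplasmic reticulum, trimmed and crosslinked outside the cell, bound by receptors, and cleared by proteases and endocytic receptors.

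The glycine repeat can be read directly in the coding sequence, since glycine codons have the letters GGN. A stretch of 72 bases from the longest unbroken repeat is given for 1 abundant fibrillar chain, Col1a1, and for 4 of the 6 chains whose RNA differed between the diets, with the glycine codons in capitals (GENCODE M21 transcripts, build GRCm38, 5′ to 3′).
Col1a1: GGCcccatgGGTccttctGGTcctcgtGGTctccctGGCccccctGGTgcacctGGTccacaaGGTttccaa
Col4a5: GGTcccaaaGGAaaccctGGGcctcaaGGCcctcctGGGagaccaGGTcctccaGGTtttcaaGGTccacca
Col6a6: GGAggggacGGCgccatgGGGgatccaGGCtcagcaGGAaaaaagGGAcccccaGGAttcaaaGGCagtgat
Col12a1: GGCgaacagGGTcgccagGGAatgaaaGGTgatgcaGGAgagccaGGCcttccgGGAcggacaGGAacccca
Col16a1: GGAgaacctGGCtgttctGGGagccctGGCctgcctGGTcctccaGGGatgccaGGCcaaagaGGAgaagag
The stretches begin at codon 168 of Col1a1, 1249 of Col4a5, 1391 of Col6a6, 2805 of Col12a1 and 1006 of Col16a1. The longest run of consecutive glycine triplets had a median of 338 codon triplets (range 216 to 344) over the 11 fibrillar chains, 43.5 (39 to 66) over the 6 type IV chains, 45 (37 to 87) over the 6 type VI chains and 57 (32 to 113) over the 9 FACIT chains. The 6 chains that differed between the diets all belong to the last 3 of these classes, in which the longest run is shorter than in the fibrillar chains. The runs are also shorter in the multiplexins (30), short chain (60 to 61), transmembrane (40 to 56) and remaining collagens (23 to 75). None of those chains passed the test, with 2 tested in each of these classes. A short run was thus also found in chains that did not pass.

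The upstream sequences of 4 of these 6 chains are shown because several of them share a start region with a neighbour. Each is written 5′ to 3′ on the strand of its gene, from RefSeq on GRCm38.p6, and ends at the last base before the GENCODE gene model. Capitals mark a match on either strand to the CCAAT box (CCAAT), to the GC box (GGGCGG, which is read as CCGCCC when it lies on the opposite strand) or to the TATA box (TATAAA).
Col4a5 (chrX:141475169-141475384, plus strand): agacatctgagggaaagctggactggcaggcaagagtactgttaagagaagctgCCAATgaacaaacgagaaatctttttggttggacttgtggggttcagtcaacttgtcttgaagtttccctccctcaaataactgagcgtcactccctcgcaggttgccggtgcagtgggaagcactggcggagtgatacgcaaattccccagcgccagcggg
Col6a6 (chr9:105828161-105828335, minus strand): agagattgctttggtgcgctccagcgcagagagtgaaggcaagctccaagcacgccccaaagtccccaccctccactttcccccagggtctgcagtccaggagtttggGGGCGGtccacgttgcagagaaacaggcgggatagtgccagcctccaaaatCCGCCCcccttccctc
Col16a1 (chr4:130047590-130047839, plus strand): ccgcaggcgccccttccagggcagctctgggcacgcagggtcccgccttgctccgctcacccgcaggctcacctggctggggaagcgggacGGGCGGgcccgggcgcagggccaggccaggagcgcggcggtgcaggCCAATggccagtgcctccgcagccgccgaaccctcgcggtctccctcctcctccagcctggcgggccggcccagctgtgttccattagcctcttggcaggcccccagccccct
Col4a4 (chr1:82586850-82586920, minus strand): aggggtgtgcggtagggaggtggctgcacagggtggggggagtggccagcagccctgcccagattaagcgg
The 71 bases before Col4a4 are the whole interval between Col4a3 and Col4a4, which are transcribed away from each other from starts 72 bases apart on chromosome 1, and hold none of the 3 motifs. The same head-to-head layout was found for Col4a1 and Col4a2 on chromosome 8, whose gene models share 22 bases, and for Col4a5 and Col4a6 on chromosome X, with 1308 bases between them. Col4a5 has 1 CCAAT match, Col6a6 has a GGGCGG match on each strand, and Col16a1 has 1 match to GGGCGG and 1 to CCAAT within the stretches shown. Over 38 windows of 250 bases from 35 collagen genes, 13 held CCAAT, 22 held GGGCGG and 5 held TATAAA, while the shares over 32817 windows of all genes were 33.83%, 32.72% and 12.37%. A match describes letters and is no evidence that a factor binds.

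The count totals lay between 16996896 and 18859320 per library. CPM is the count scaled to library size with edgeR's TMM factor, and 3 counts, used as the floor of detection, correspond to 0.150 to 0.181 CPM, which covers counting error only. Markers of adipocytes summed to 35500.2 to 45294 CPM on ND and 15371 to 35802 CPM on HFD. Those of macrophages summed to 1734 to 1845 CPM on ND and 3874 to 8515 CPM on HFD, with 9 of 10 higher on HFD. Of 10 adipocyte markers, 1 passed the threshold in each direction, Lep higher and Cfd lower. Cfd went from a mean of 13633.5 CPM with ND to 1275.4 CPM with HFD, a large part of the fall in the adipocyte sum. Of the 10 adipocyte log2 fold changes 7 were negative and 3 positive, with a median of -0.38. HFD3 had the highest macrophage and the lowest adipocyte sum. Markers of fibroblasts and progenitors summed to 11124 to 13229 CPM on ND and 5596 to 12227 CPM on HFD, and none of the 10 passed the test. Gsn made up most of this sum, ranging from 10021 to 12094 CPM with ND against 4489 to 11165 CPM with HFD. The sum therefore mainly follows Gsn. Among the 10 markers 6 log2 fold changes were positive and 4 negative, with a median of 0.01. Epithelial markers summed to 110 CPM in ND3 against 9.56 to 12.8 CPM in the other 5 libraries, and Epcam, the cell adhesion molecule that defines epithelia, had 37.5 CPM in ND3 against 0 to 0.219 CPM elsewhere. Mesothelial markers summed to 249.8 to 462 CPM on ND and 176 to 315 CPM on HFD, and none of the 10 passed. ND3 therefore stands apart, and values without it are given beside Col4a3, Col4a4, Col4a6, Col8a2, Col11a2 and Col23a1, in which it was the highest library.

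The effect of HFD on the collagen family was uneven, with calls in 3 of its classes and in both directions. Of the 44 chains, 32 had enough counts to be tested, and 6 of them (18.8%) passed the threshold of an adjusted p-value under 0.05 in edgeR's quasi-likelihood test, against 15.9% of the 15751 genes tested. Col4a3, Col4a4 and Col4a5 of the basement membrane and Col6a6 of the type VI family were lower on HFD (12.5% of the tested chains against 6.04% of all genes), and the FACIT chains Col12a1 and Col16a1 were higher (6.25% against 9.85%). The other 26 did not pass. DESeq2 called 3 chains higher and 6 lower, adding Col8a1, Col4a6 and Col6a5, while it called 10.7% of its genes higher and 8.42% lower. The median log2 fold change of HFD over ND was -0.22 over the 32 chains and 0.0074 over all genes tested, with 19 chains negative and 13 positive. The libraries of both diets did not overlap in 12 chains (37.5%, 5 higher and 7 lower), against 40.9% of all genes. At an unadjusted p under the same threshold there were 9 chains, where all genes gave 34.0%. With ND1, ND3 or HFD1 left out, Col16a1 was the 1 chain higher and Col4a5 and Col6a6 the 2 lower, in fits that called 492, 1003 and 474 genes in all against 2504 with every library, and without HFD3 there were 1 higher and 3 lower. The shares over both directions lie near the background, so the counts alone do not set the family apart.

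By level, none of the 14 chains with a mean above 100 CPM passed the test, where 20.7% of all tested genes in that range did. Of the 9 chains between 10 and 100 CPM 5 passed (17.9% of all genes), and of the 9 tested chains at or below 10 CPM 1 did (11.3% of all genes). The 6 chains that passed accounted for 1.68% of the summed FPKM of all collagen chains on ND and 1.48% on HFD (FPKM divides the count by transcript length and library factor, so that chains can be compared with each other).

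**Figure D1:**
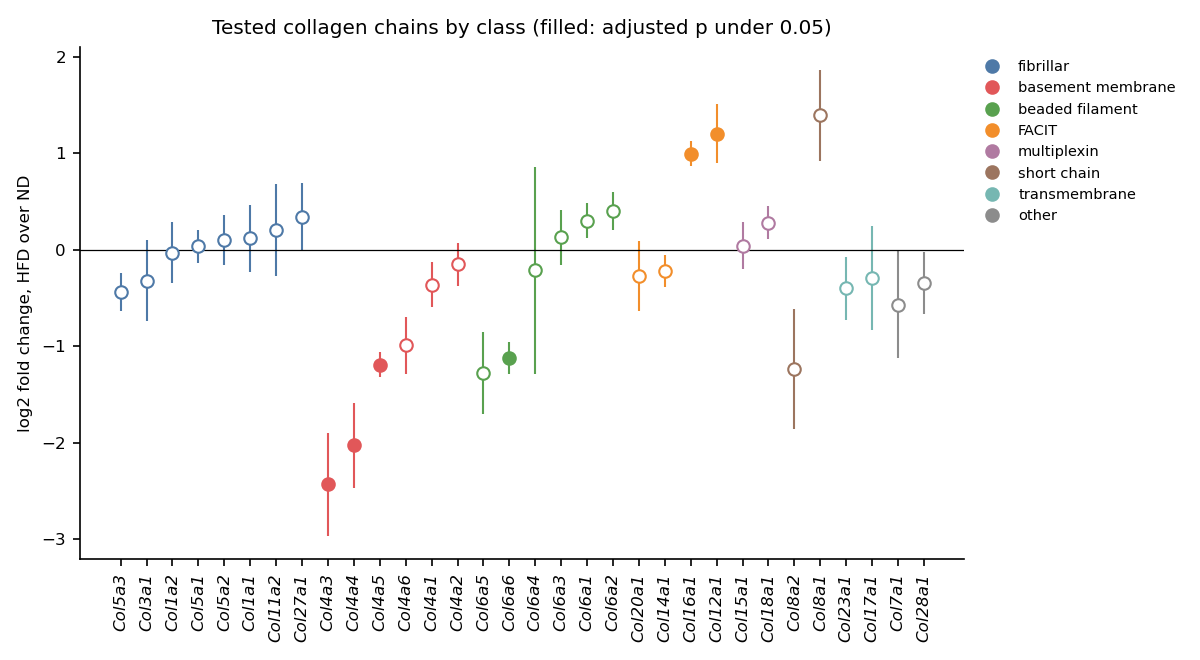
The log2 fold change of HFD over ND (y axis) is plotted for the 32 tested collagen chains, grouped by class, with the standard error as a bar and filled circles for an adjusted p under 0.05. The 3 filled type IV chains and Col6a6 lie below 0, Col16a1 and Col12a1 lie above it, and the fibrillar chains lie between -0.44 and 0.34.

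Of the 6 type IV chains, all tested, 3 were lower on HFD and none was higher, where 6.04% of all genes were lower and 9.85% higher, and the calls of Col4a3 and Col4a4 were each lost in 4 of the 6 fits that leave out a library. The log2 fold changes of the 6 chains were all negative with a median of -1.09. Col4a1 and Col4a2 form the common network of every basement membrane, whereas Col4a3, Col4a4 and Col4a5 assemble with each other into a specialised network known best from the kidney, and Col4a5 also pairs with Col4a6. The 2 common chains did not pass the test and the 3 chains of the specialised network did.

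Col4a5 (ENSMUSG00000031274, chromosome X from 141475385 to 141689234, plus strand) had 59.3, 46.7 and 58.6 CPM in the ND libraries and 23.9, 23.8 and 24.3 CPM in the HFD libraries. Its HFD libraries were nearly identical and all lay well under the lowest ND library. The mean fell from 54.9 ± 7.10 to 24.03 ± 0.242 CPM (SD, n = 3 each), 2.28-fold (log2 fold change -1.19, SE 0.13, adjusted p = 0.00546), and it passed the test in every alternative fit and with any 1 library left out (log2 fold change -1.29 to -1.13). Col4a6 (ENSMUSG00000031273, chromosome X from 141165403 to 141474076, minus strand), its neighbour across the shared start region, had 15.3, 10.7 and 20.5 CPM in the ND libraries and 9.23, 8.67 and 5.53 CPM in the HFD libraries. Those values did not overlap, but the difference did not pass (log2 fold change -0.99, SE 0.30, adjusted p = 0.0619). With DESeq2 it passed (adjusted p = 0.0152), and without ND3, its highest library, the log2 fold change was -0.77 (adjusted p = 0.156).

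Col4a3 (ENSMUSG00000079465, chromosome 1 from 82586921 to 82722059, plus strand) had 7.45, 3.89 and 15.1 CPM in the ND libraries and 1.58, 2.17 and 1.15 CPM in the HFD libraries. Every HFD library was lower than every ND library, although the ND values themselves ranged from 3.89 to 15.1 CPM. It was 5.40-fold lower on HFD (log2 fold change -2.43, SE 0.53, adjusted p = 0.0259). Col4a4 (ENSMUSG00000067158, chromosome 1 from 82448423 to 82586849, minus strand), which starts 72 bases away, had 15.98, 14.1 and 34.0 CPM in the ND libraries and 5.19, 7.47 and 3.05 CPM in the HFD libraries and was 4.09-fold lower (log2 fold change -2.03, SE 0.44, adjusted p = 0.0255). In both genes ND3 was the highest and HFD3 the lowest library.

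ND3 is also the library with the epithelial markers, whose part in these results was not tested. Without ND3 the log2 fold changes were -1.83 for Col4a3 and -1.55 for Col4a4, with adjusted p = 0.0567 and 0.0608, so neither passed. The remaining 2 ND libraries still lay above all HFD libraries. Col4a3 also missed the threshold with limma-voom (adjusted p = 0.0539), with limma on unfiltered FPKM (adjusted p = 0.165) and without ND1, HFD1 or HFD3. The other FPKM fits did not test it, because their filter of 0.5 FPKM in at least 3 libraries removed it. Col4a4 missed the threshold with limma on unfiltered FPKM (adjusted p = 0.111) and without ND1, ND2 or HFD1. Col4a3 overlaps the exons of C430014B12Rik on the opposite strand over 563 bases, the longest of the overlaps with another gene that 13 of the 44 chains have, and since strandedness of the counting is not given in the sources used here, reads from that stretch cannot be assigned.

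The common type IV chains were among the most abundant collagens. Col4a1 (ENSMUSG00000031502, chromosome 8 from 11198423 to 11312826, minus strand) had 1481, 2260.5 and 1407 CPM in the ND libraries and 1349, 1276 and 1377 CPM in the HFD libraries. ND2 stood above the other ND libraries, and all HFD libraries were a little under the lowest ND library (log2 fold change -0.36, SE 0.24, adjusted p = 0.318). Col4a2 (ENSMUSG00000031503, chromosome 8 from 11312805 to 11449287, plus strand) had 879, 1319 and 844 CPM in the ND libraries and 945, 888 and 902 CPM in the HFD libraries, and the diets overlapped (log2 fold change -0.15, SE 0.22, adjusted p = 0.660).

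Laminins, nidogens, perlecan and agrin share the basement membrane with type IV collagen. Of 9 such partners, 2 were lower on HFD (against 6.04% of all genes) and none was higher (9.85%), with a median log2 fold change of -0.48 and 8 of 9 negative. Nid2, a nidogen that links laminin to type IV collagen, had 176, 208 and 161 CPM in the ND libraries and 82.9, 93.6 and 62.1 CPM in the HFD libraries (log2 fold change -1.19, SE 0.18, adjusted p = 0.0103). Lama4, the laminin chain of vascular and adipocyte basement membranes, had 314, 345 and 306 CPM in the ND libraries and 186, 209.9 and 162 CPM in the HFD libraries (log2 fold change -0.79, SE 0.15, adjusted p = 0.0169). In neither gene did the diets overlap. Nid2 alone passed without ND1 or ND2 and neither gene without HFD1, whereas Lama4, Lamb1, Lamb2 and Nid2 passed without HFD2. The other nidogen, Nid1, did not pass (log2 fold change -0.13, adjusted p = 0.762), and neither did Hspg2, which encodes perlecan and was the only partner with a positive value (log2 fold change 0.36, adjusted p = 0.296). Markers of mural cells, the pericytes and smooth muscle cells that lie on basement membranes, summed to 1315 to 1531 CPM on ND and 600.0 to 1184 CPM on HFD. Of these 10 markers 2 were lower (against 6.04% of all genes), and all 10 log2 fold changes were negative with a median of -0.76. Endothelial markers summed to 1579 to 1859.7 CPM on ND and 885 to 1782 CPM on HFD. None of these 10 passed the threshold, and all 10 were negative with a median of -0.29. The part of mural and endothelial cells in the type IV result was not tested.

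**Figure D2:**
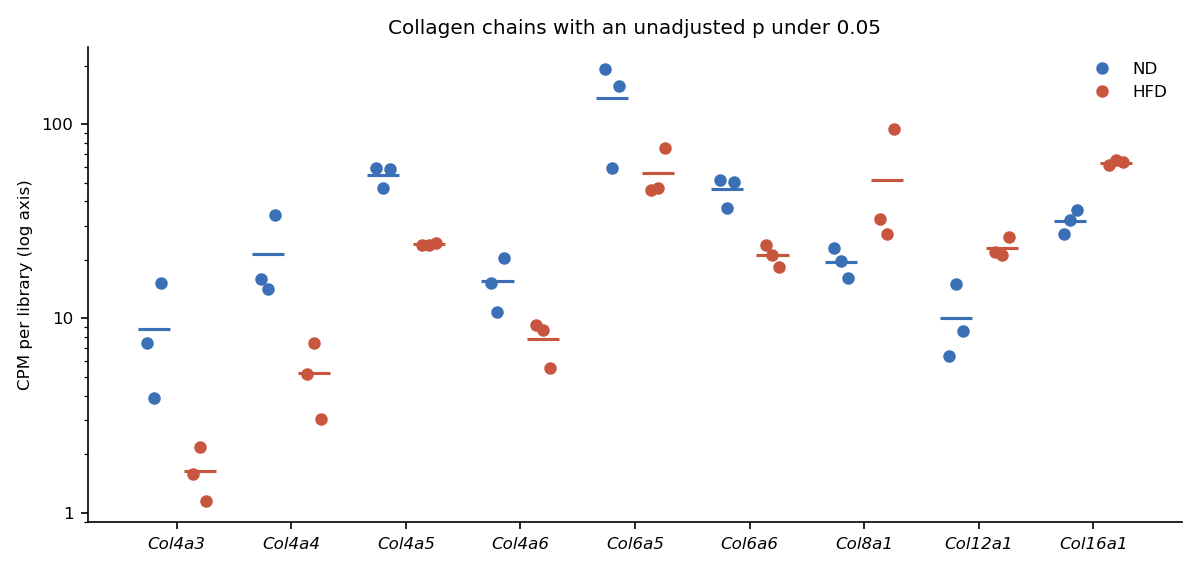
CPM per library on a log axis is plotted for the 9 chains with an unadjusted p under 0.05, with each circle a library and each bar the mean of a diet. The circles of Col4a5 on HFD (23.8 to 24.3 CPM) lie far under those on ND (46.7 to 59.3 CPM), Col16a1 shows the opposite order, and Col6a5 has a low ND library that overlaps the HFD values.

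In the type VI family 1 of the less abundant chains passed the test and the classical chains did not. Col6a1, Col6a2 and Col6a3 assemble into the type VI molecule found in most tissues, and Col6a4, Col6a5 and Col6a6 are thought to be able to take the place of Col6a3. Of these 6 chains, 1 was lower (against 6.04% of all genes) and none was higher (9.85%), with a median log2 fold change of -0.04.

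Col6a6 (ENSMUSG00000043719, chromosome 9 from 105687809 to 105828160, minus strand) had 51.2, 37.0 and 50.3 CPM in the ND libraries and 23.8, 21.3 and 18.5 CPM in the HFD libraries. The lowest ND library lay above the highest HFD library, and the mean fell from 46.2 ± 7.97 to 21.2 ± 2.67 CPM (SD, n = 3 each), 2.18-fold (log2 fold change -1.12, SE 0.17, adjusted p = 0.00965). Like Col4a5, it passed in every alternative fit and with any 1 library left out. Col6a5, its upstream neighbour on chromosome 9 (ENSMUSG00000091345, chromosome 9 from 105856078 to 105960643, minus strand), had 193, 59.3 and 157 CPM in the ND libraries and 45.6, 47.1 and 75.6 CPM in the HFD libraries. ND2 lay among the HFD values, and the difference did not pass (log2 fold change -1.28, SE 0.42, adjusted p = 0.0809). It passed without ND2 (adjusted p = 0.0408) and with DESeq2 (adjusted p = 0.00932). The third gene of that cluster, Col6a4, stayed between 0 and 1.24 CPM, with 1 ND library without a read (log2 fold change -0.22, adjusted p = 0.908).

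The classical chains had small positive log2 fold changes. Col6a1 (ENSMUSG00000001119, chromosome 10 from 76708792 to 76726168, minus strand) had 440.0, 535 and 495 CPM in the ND libraries and 557, 536 and 717 CPM in the HFD libraries (log2 fold change 0.30, SE 0.18, adjusted p = 0.288). Col6a2 (ENSMUSG00000020241, chromosome 10 from 76595762 to 76623630, minus strand) had 396, 507 and 424 CPM in the ND libraries and 530.2, 514 and 708 CPM in the HFD libraries (log2 fold change 0.40, SE 0.19, adjusted p = 0.190). All HFD libraries of these neighbouring genes lay above the ND libraries, by a margin that did not pass the test. Col6a3 (ENSMUSG00000048126, chromosome 1 from 90765923 to 90843971, minus strand), whose cleaved end is the adipokine endotrophin, had 204, 303 and 223 CPM in the ND libraries and 250.2, 178 and 368 CPM in the HFD libraries, with overlapping diets (log2 fold change 0.13, SE 0.28, adjusted p = 0.787).

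FACIT collagens contained both chains that were higher on HFD. Of 9 FACIT chains 4 were tested, 2 were higher (against 9.85% of all genes) and none was lower (6.04%), with a median log2 fold change of 0.38. Col16a1, which is found near fibers and basement membranes, had 27.3, 31.9 and 36.1 CPM in the ND libraries and 61.3, 65.2 and 63.5 CPM in the HFD libraries (ENSMUSG00000040690, chromosome 4 from 130047840 to 130099283, plus strand). The HFD libraries lay close together, and each was above every ND library. The mean rose from 31.8 ± 4.41 to 63.3 ± 1.93 CPM (SD, n = 3 each), 1.99-fold (log2 fold change 0.99, SE 0.13, adjusted p = 0.00732), and the call held in every alternative fit and with any 1 library left out (log2 fold change 0.89 to 1.06).

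Col12a1, a large chain that decorates type I fibers, had 6.42, 15.1 and 8.60 CPM in the ND libraries and 22.0, 21.1 and 26.1 CPM in the HFD libraries (ENSMUSG00000032332, chromosome 9 from 79598991 to 79718831, minus strand). The HFD libraries were again close to each other and above all ND libraries, and the mean was 2.30-fold higher on HFD (log2 fold change 1.204, SE 0.31, adjusted p = 0.0394). This call was less firm, since it was lost without ND1, ND3, HFD1 or HFD3 (adjusted p = 0.1002, 0.115, 0.118 and 0.0824). Col14a1, a related chain on collagen fibers, was the most abundant FACIT chain in CPM and had 97.7, 125 and 105 CPM in the ND libraries and 76.9, 93.5 and 109.8 CPM in the HFD libraries (log2 fold change -0.22, SE 0.17, adjusted p = 0.380). Col20a1 had 1.15 to 2.05 CPM (log2 fold change -0.27, adjusted p = 0.632). The cartilage chains Col9a1, Col9a2 and Col9a3 and the chains Col19a1 and Col22a1 had at most 12 counts in any library and were not tested.

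The fibrillar chains, which make up the bulk of scar and stroma collagen, gave no call in either direction. Of 11 chains, 8 were tested and none passed, where 15.9% of all genes did, with a median log2 fold change of 0.07. Col3a1, which mixes with type I fibers in soft tissue, had the highest mean FPKM of the family on both diets, and HFD3 held its highest value and HFD2 its lowest (2363, 3373 and 2630.0 CPM in the ND libraries and 1791, 1196 and 3711 CPM in the HFD libraries, ENSMUSG00000026043, chromosome 1 from 45311538 to 45349706, plus strand, log2 fold change -0.32, SE 0.42, adjusted p = 0.627).

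Type I collagen is built from Col1a1 and Col1a2. Col1a1 (ENSMUSG00000001506, chromosome 11 from 94936224 to 94953042, plus strand) had 438, 580.3 and 606 CPM in the ND libraries and 495, 351 and 914 CPM in the HFD libraries (log2 fold change 0.12, SE 0.35, adjusted p = 0.843). Col1a2 (ENSMUSG00000029661, chromosome 6 from 4504814 to 4541544, plus strand) had 708, 860.0 and 905 CPM in the ND libraries and 706, 520.5 and 1195 CPM in the HFD libraries (log2 fold change -0.03, SE 0.31, adjusted p = 0.957). In both genes the HFD libraries reached below and above the whole ND range, so the direction is not resolved: without HFD3 the log2 fold changes were -0.37 and -0.44, and without HFD2 they were 0.39 and 0.21. HFD3 is the library with the highest macrophage sum, whose part in this was not tested.

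Type V collagen nucleates fibers and sets their diameter. Col5a1 (ENSMUSG00000026837, chromosome 2 from 27886425 to 28039514, plus strand) had 268, 346 and 265 CPM in the ND libraries and 282, 276 and 344 CPM in the HFD libraries (log2 fold change 0.04, SE 0.17, adjusted p = 0.904), and Col5a2, which lies beside Col3a1 on chromosome 1, did not pass either (log2 fold change 0.10, adjusted p = 0.818). Col5a3, a less common partner, had 525, 755.2 and 515 CPM in the ND libraries and 439.6, 461 and 425 CPM in the HFD libraries. Each HFD library was under the lowest ND library, but the difference did not pass the test (log2 fold change -0.44, SE 0.20, adjusted p = 0.161). Col11a2 and Col27a1, known from cartilage, had 0.580 to 1.75 CPM and 5.74 to 13.7 CPM, with log2 fold changes of 0.21 and 0.34 (adjusted p = 0.796 and 0.529). Col11a2 was highest in ND3, and without ND3 its log2 fold change was 0.73 (adjusted p = 0.319). Markers of cartilage cells were scarce, at 12.01 to 35.6 CPM on ND and 5.72 to 10.8 CPM on HFD in sum, with the highest sum in ND3. Of the 5 tested, 2 were lower (against 6.04% of all genes) and none was higher (9.85%). Their log2 fold changes were negative in 3 and positive in 2, with a median of -1.48. Matn1 and Snorc had no read in any library. Col2a1, the main cartilage collagen, had at most 1 count in any library, and Col11a1 and Col24a1 had at most 17 and 9 counts and were not tested.

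Multiplexins are basement membrane collagens that carry large glycosylated ends. Col15a1 (ENSMUSG00000028339, chromosome 4 from 47208161 to 47313167, plus strand) had 394, 607 and 343 CPM in the ND libraries and 394, 505 and 486 CPM in the HFD libraries (log2 fold change 0.04, SE 0.24, adjusted p = 0.920). Col18a1 (ENSMUSG00000001435, chromosome 10 from 77052178 to 77166548, minus strand), the source of the fragment endostatin, had 242, 225 and 217 CPM in the ND libraries and 248, 343 and 239.9 CPM in the HFD libraries (log2 fold change 0.28, SE 0.17, adjusted p = 0.297). The diets overlapped in both.

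Among the short chain collagens, Col8a1, which vessel walls and wound stroma produce, had 22.9, 19.7 and 16.2 CPM in the ND libraries and 32.3, 27.2 and 94.7 CPM in the HFD libraries (ENSMUSG00000068196, chromosome 16 from 57624258 to 57754737, minus strand). Its HFD libraries all lay above the ND libraries, but HFD3 stood far above the other HFD libraries, and the difference did not pass (log2 fold change 1.39, SE 0.47, adjusted p = 0.0846). It passed with DESeq2 (adjusted p = 0.0145) and without HFD2 (adjusted p = 0.0280), while without HFD3 the log2 fold change was 0.59 (adjusted p = 0.0732). Its partner Col8a2 had 6.59, 4.18 and 20.2 CPM in the ND libraries and 3.17, 3.13 and 6.85 CPM in the HFD libraries, with ND3 far above the other ND libraries (log2 fold change -1.24, adjusted p = 0.207, and without ND3 -0.34, adjusted p = 0.650). Col10a1, the collagen of hypertrophic cartilage, had at most 5 counts in any library.

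No transmembrane collagen passed the test. Col23a1 had 4.55 to 9.60 CPM, highest in ND3 (log2 fold change -0.40, adjusted p = 0.425, and without ND3 -0.27, adjusted p = 0.673) and Col17a1, a component of epithelial hemidesmosomes, had 0.290 to 0.864 CPM (log2 fold change -0.30, adjusted p = 0.736). Col13a1 had 39 counts in ND3, the library with epithelial markers, and 2 to 15 elsewhere, and Col25a1 had 8 counts in ND3 and at most 1 elsewhere, so neither was tested. Col7a1, which forms the anchoring fibrils of skin, had 0.437 to 1.68 CPM (log2 fold change -0.57, adjusted p = 0.505). Col28a1, a collagen of peripheral nerve, had 8.37 to 18.9 CPM (log2 fold change -0.35, adjusted p = 0.481). Of 8 tested markers of Schwann cells, the glia of peripheral nerve, 3 were lower (against 6.04% of all genes) and 1, Mbp, was higher (9.85%). Of the lower ones Ncam1 and Ngfr were highest in ND3. Among the 8 log2 fold changes 6 were negative and 2 positive, with a median of -1.22. The markers summed to 41.4 to 61.9 CPM on ND and 75.2 to 84.3 CPM on HFD, and Mbp had means of 34.7 and 70.4 CPM. Col26a1 had at most 11 counts. In all, the 12 chains that were not tested had totals of 2 to 73 counts over the 6 libraries.

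The part of the transcriptome taken by the whole family overlapped between the diets. Its share of the summed FPKM of all genes was 0.340%, 0.414% and 0.369% on ND and 0.355%, 0.298% and 0.450% on HFD, a mean of 0.374% ± 0.0372 on ND and 0.368% ± 0.0767 on HFD (SD, n = 3 each). HFD2 had the lowest and HFD3 the highest share, so that the HFD libraries enclosed the ND range. In raw counts the share was 1.03% ± 0.103 on ND and 0.943% ± 0.232 on HFD.

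By FPKM the 6 most abundant chains of a diet held 71.8% of the family on ND and 68.9% on HFD. On ND the order was Col3a1 (288 ± 55.2 FPKM), Col4a1 (233 ± 65.7), Col4a2 (156 ± 41.5), Col6a1 (114 ± 11.2), Col5a3 (89.2 ± 20.8) and Col1a1 (83.6 ± 13.6). The ranges of Col3a1 and Col4a1 overlap, but Col3a1 was the higher in each ND library (245, 350 and 269 against 202, 309 and 189 FPKM). Col5a3 lay above Col1a1 in ND1 and ND2 and under it in ND3. On HFD the means kept the same first 4 places, but Col3a1 (228 ± 134) led through HFD3, was under Col4a1, Col4a2 and Col6a1 in HFD2 and was not separated from Col4a1 (179 ± 6.75), and Col4a2 and Col6a1 had equal means (138 ± 4.57 and 138 ± 22.5). Col1a1 and Col15a1 followed at 89.7 ± 44.5 and 73.0 ± 9.37 FPKM. The length behind each FPKM is close to the summed exons of a gene, which is 12426 bases for Col1a2 and 6563 for Col1a1, so the rank of a chain depends on the annotated length. Fibrillar chains made up 44.3% of collagen FPKM on ND and 40.8% on HFD, type IV 29.8% and 27.1%, type VI 15.7% and 19.6%, and multiplexins 7.79% and 9.52%.

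**Figure D3:**
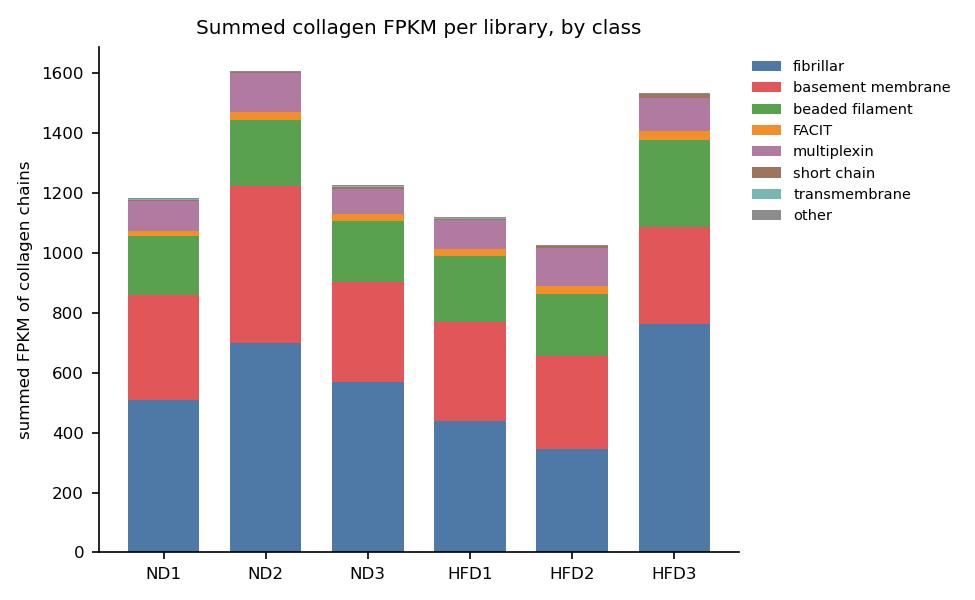
Stacked bars show the summed FPKM of all collagen chains in each library, split by class. Fibrillar, type IV and type VI chains fill most of every bar, and the bars of HFD2 and HFD3 are the lowest and the second highest of the 6.

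Chains of the same collagen type or of different types can be compared within a library, where depth cancels. For 7 ratios of FPKM an exact two-sided permutation test over libraries was used, in which 3 against 3 libraries cannot give p below 0.1. The ratio of Col4a1 to Col4a2 was 1.49, 1.52 and 1.48 on ND and 1.27, 1.27 and 1.35 on HFD. That ratio varied little within a diet, and all ND values exceeded all HFD values (means 1.497 ± 0.0214 and 1.30 ± 0.0490, SD, n = 3 each, exact permutation p = 0.1, Benjamini-Hochberg adjusted over 7 ratios 0.175). These are the head-to-head genes whose models share 22 bases.

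Col3a1 to Col1a1 was 3.61, 3.89 and 2.90 on ND and 2.42, 2.28 and 2.71 on HFD. Each HFD value was lower than each ND value, and the mean went from 3.47 ± 0.506 to 2.47 ± 0.223. The Col1a1 to Col1a2 ratio was 1.17, 1.28 and 1.27 on ND and 1.33, 1.28 and 1.45 on HFD, with the lowest HFD value just above the highest ND value. For Col6a1 to Col6a2 the means were 2.11 ± 0.107 on ND and 1.97 ± 0.0364 on HFD. All 3 of these ratios separated the diets at the smallest p the design allows (exact permutation p = 0.1, adjusted 0.175), and none reached the threshold. Col6a3 to Col6a1 (0.180 ± 0.0230 and 0.158 ± 0.0336), Col5a1 to Col1a1 (0.425 ± 0.0750 and 0.446 ± 0.159) and Col4a1 to Col1a1 (2.81 ± 0.705 and 2.30 ± 0.938) overlapped between the diets (exact permutation p = 0.4, 1 and 0.6).

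**Figure D4:**
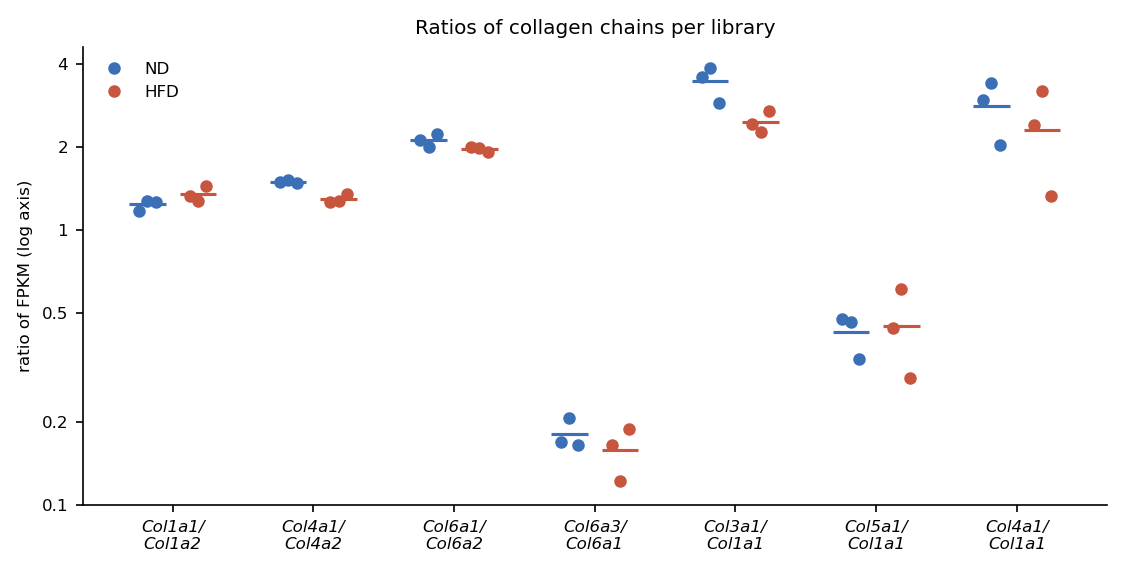
The FPKM ratio of a pair of chains in each library (log axis) is plotted for 7 pairs, with circles for libraries and bars for the mean of each diet. Col4a1/Col4a2 shows tight groups near 1.497 on ND and 1.30 on HFD, Col3a1/Col1a1 has means of 3.47 on ND and 2.47 on HFD, and the 2 rightmost pairs overlap.

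The genes that modify, deposit and clear collagen were read from the same fit, by lists of their roles. Enzymes and chaperones of collagen synthesis were mostly positive without passing the test: of 20 genes 19 were tested, 1 was higher (9.85% of all genes), none was lower (6.04%), and the median log2 fold change was 0.20. Colgalt1, which adds galactose to hydroxylysine, had 96.2, 103 and 90.7 CPM in the ND libraries and 196, 152 and 265 CPM in the HFD libraries (log2 fold change 1.08, SE 0.21, adjusted p = 0.0178), and it did not pass without ND1, ND2, ND3 or HFD1. Serpinh1, the collagen chaperone HSP47, had 602, 918 and 489.6 CPM in the ND libraries and 627, 652 and 740.2 CPM in the HFD libraries (log2 fold change 0.01, adjusted p = 0.988). Colgalt2, the other galactosyltransferase, had 3.19, 4.47 and 3.60 CPM in the ND libraries and 1.53, 2.35 and 1.32 CPM in the HFD libraries, without overlap, and missed the threshold (log2 fold change -1.11, SE 0.33, adjusted p = 0.0597). The lysyl hydroxylase Plod1 and the prolyl hydroxylase subunit P4ha1 had log2 fold changes of 0.51 and 0.71 and missed the threshold (adjusted p = 0.0548 and 0.0642).

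Of 12 genes for propeptide removal and crosslinking, all tested, 1 was higher (9.85% of all genes) and none lower (6.04%). Pcolce2, an enhancer of procollagen cleavage, had 28.0, 22.3 and 22.5 CPM in the ND libraries and 54.2, 85.3 and 50.3 CPM in the HFD libraries (log2 fold change 1.38, SE 0.22, adjusted p = 0.0119). The crosslinking enzyme Lox had 82.3, 114 and 82.2 CPM in the ND libraries and 102, 99.3 and 101 CPM in the HFD libraries, and its log2 fold change was 0.12 (adjusted p = 0.609). The median of the list was 0.12, and Pcolce2 missed the threshold without ND2 or ND3.

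Among 18 proteins that bind collagen fibers or accompany them, 3 were higher (against 9.85% of all genes) and 2 were lower (6.04%), with a median log2 fold change of 0.05. Thbs2, a thrombospondin that affects fiber assembly, had 26.2, 27.8 and 22.6 CPM in the ND libraries and 107, 111 and 84.1 CPM in the HFD libraries (log2 fold change 1.98, SE 0.15, adjusted p = 0.00259). Prelp, a leucine-rich repeat protein that binds collagen, was also higher (log2 fold change 1.59, adjusted p = 0.0189), as was Fbln2 (log2 fold change 0.62, adjusted p = 0.0327). Eln, which encodes elastin, had 306, 312 and 291 CPM in the ND libraries and 96.4, 115 and 77.2 CPM in the HFD libraries (log2 fold change -1.66, SE 0.17, adjusted p = 0.00486). Thbs2 and Eln passed with any 1 library left out, and they were the 2 that passed without ND1, ND2, ND3 or HFD1. Ogn was lower as well (log2 fold change -0.69, adjusted p = 0.0199), whereas the abundant small proteoglycan Dcn did not pass (log2 fold change -0.01, adjusted p = 0.977).

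Collagen degradation and uptake was the list with the most calls, 9 of 18 tested genes higher against 9.85% of all genes and 1 lower against 6.04%, with a median log2 fold change of 1.57 and a summed level of 3236 to 3780.1 CPM on ND and 7917 to 18558 CPM on HFD. Mmp12, the macrophage metalloelastase, had 14.5, 8.29 and 7.35 CPM in the ND libraries and 938, 571 and 3481 CPM in the HFD libraries (log2 fold change 7.37, SE 0.86, adjusted p = 0.00624). Ctss and Ctsk, lysosomal cathepsins, had log2 fold changes of 3.62 and 3.30 (adjusted p = 0.00448 and 0.0103). Timp1, an inhibitor of the metalloproteinases, had 2.86, 4.12 and 1.999 CPM in the ND libraries and 14.3, 7.95 and 61.4 CPM in the HFD libraries (log2 fold change 3.22, SE 0.79, adjusted p = 0.0350). In each of these genes HFD3 was the highest library, as it was for the macrophage markers. Without HFD3 the list still had 9 genes higher and 1 lower. Without ND1 or ND2 there were 3 higher and without ND3 or HFD1 there were 4, with Mmp12, Ctss and Mrc2 among them each time, and without HFD2 there were 13.

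Mrc2, the endocytic collagen receptor of fibroblasts and macrophages, had 31.3, 37.0 and 32.2 CPM in the ND libraries and 128, 144 and 163 CPM in the HFD libraries (log2 fold change 2.12, SE 0.14, adjusted p = 0.00130). Mmp9, a gelatinase that cleaves type IV collagen, went the other way, from 14.2 ± 5.67 CPM to 3.71 ± 0.707 CPM (SD, n = 3 each) and without overlap of the libraries (log2 fold change -1.94, SE 0.35, adjusted p = 0.0149), and missed the threshold without ND1, ND3 or HFD1. Mmp2, the other gelatinase, and Mmp14, its activator at the cell surface, had log2 fold changes of 0.86 and 0.80 (adjusted p = 0.0806 and 0.0724). Macrophage markers moved with this list, for example Cd68 with 34.6, 31.8 and 27.9 CPM in the ND libraries and 381, 196 and 666 CPM in the HFD libraries, and their part in it was not tested.

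Of 11 collagen receptors, 10 were tested, 3 were higher (against 9.85% of all genes) and none was lower (6.04%), with a median log2 fold change of 0.17. Lair1, an inhibitory collagen receptor of immune cells, had 8.10, 8.06 and 8.997 CPM in the ND libraries and 44.2, 27.0 and 74.4 CPM in the HFD libraries (log2 fold change 2.53, SE 0.35, adjusted p = 0.00875). Adgrg6, an adhesion receptor that binds type IV collagen, had 7.72, 4.99 and 6.55 CPM in the ND libraries and 13.9, 11.4 and 21.9 CPM in the HFD libraries (log2 fold change 1.29, SE 0.29, adjusted p = 0.0274). Itga11, the integrin subunit for fibrillar collagen on fibroblasts, had 6.64, 8.93 and 6.60 CPM in the ND libraries and 12.9, 13.4 and 15.2 CPM in the HFD libraries (log2 fold change 0.90, SE 0.19, adjusted p = 0.0218). The discoidin domain receptors Ddr1 and Ddr2 had log2 fold changes of -0.51 and 0.33 (adjusted p = 0.145 and 0.131). Lair1 passed with any 1 library left out, and it was the 1 receptor that passed without ND1, ND3 or HFD1. Over the 86 tested genes of the 6 lists 17 were higher (19.8% against 9.85% of all genes) and 5 were lower (5.81% against 6.04%). The degradation and uptake list alone held 9 of the 17. Over all 6 lists 6 were higher with ND1, ND2 or ND3 left out and 7 with HFD1 left out, and the number lower was 2, 3, 3 and 1.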

How the data were processed

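RNA of epididymal fat was sequenced as 3 libraries per diet, grouped by the diet in the labels. The paper's methods give mapping to GRCm38 with TopHat and Cufflinks, while the submitters' processing notes name CASAVA 1.8, fastp, HISAT2 2.0.5, featureCounts 1.5.0-p3, DESeq2 1.20.0 and the human build GRCh38 (hg38). The identifiers are mouse Ensembl genes, so positions are given on GRCm38. The authors deposited raw counts per gene and FPKM values per gene. The annotation release and strand setting are not given in the sources used here. Symbols, positions and coding sequences came from GENCODE M21 (54495 of 54532 identifiers found).

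Diets were compared with the quasi-likelihood test of edgeR (edgeR 4.0.16 in R 4.3.3, TMM, filterByExpr, robust fit, Benjamini-Hochberg over 15751 genes, threshold 0.05), the SE being derived from the F statistic. As alternatives, limma-voom (limma 3.58.1), DESeq2 1.42.0, other scalings and filters, FPKM, a replicate block and leaving out each library were run. Named were all chains, with full statistics for those past the threshold and 11 common chains, and, of each pathway list, up to 4 genes per direction with the largest change among those past the threshold. Other list genes were named after their values were seen. Chains, classes, pathway and marker lists were chosen with earlier results of these data known. Nothing in the labels names separate animals, so p-values measure the spread between these samples.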

Additional observations from a re-analysis of the deposited data

How the results depend on the processing

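Col4a5, Col6a6 and Col16a1 passed the threshold in every fit tried. Among the values of the 32 tested chains under alternatives other than leaving out a library, 358 kept their direction and side of the threshold, 8 fell short of it, 4 newly passed it and 2 changed sign. The count of chains higher on HFD (2) was 1 with the replicate block, with limma on log2(FPKM + 0.1) and with limma on log2(FPKM + 1) without the filter, and 1 to 3 with a library left out. The count of chains lower (4) was 2 with the replicate block and with unfiltered FPKM, and 2 to 4 with a library left out. Limma-voom gave 3, without Col4a3, and so did both filtered FPKM fits, whose filter had removed Col4a3 before the test. The deviations of same-numbered libraries correlated at -0.0674, -0.0387 and -0.00212, so the numbers give no pairing, and Col4a3, Col4a4 and Col12a1 missed the threshold under the block. The pathway genes higher (17) were 26 with DESeq2, 5 with unfiltered FPKM and 6 to 25 with a library left out, and those lower (5) were 9 with DESeq2 and 1 to 9 with a library left out. The median log2 fold change of the chains (-0.22) was -0.022 with unfiltered FPKM and -0.37 to -0.0200 with a library left out, the upper end without HFD2. Changes of sign occurred in chains that did not pass. Col6a4 had a log2 fold change of 0.54 with limma-voom, and Col5a1 one of -0.00079 among protein-coding genes only. With a library left out the ranges were -0.37 to 0.39 for Col1a1, -0.44 to 0.21 for Col1a2, -0.30 to 0.0834 for Col4a2, -0.0874 to 0.17 for Col5a1, -0.26 to 0.24 for Col5a2, -0.20 to 0.35 for Col6a3, -0.79 to 0.30 for Col6a4, -0.0803 to 0.73 for Col11a2, -0.15 to 0.33 for Col15a1 and -0.12 to 0.54 for Col27a1. The log2 difference of the ratio Col5a1 to Col1a1 ranged from -0.23 to 0.30 and that of Col4a1 to Col1a1 from -0.63 to 0.0084. What causes these shifts, beyond fewer libraries, was not tested. Too few counts were available to test 12 chains.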
